A study of Caenorhabditis elegans with 32 samples.

Results

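The genes described here are the sperm genes of Caenorhabditis elegans as targets of 22G RNA, the antisense small RNA made on messenger RNA templates by RNA-dependent RNA polymerases. They are the entries of the 22G RNA table whose gene identifier belongs, in the WBcel235 annotation, to a protein-coding gene with a name starting with msp-, spe-, nspd-, ssp- or ssq-. The rule found 86 genes of 46932 in the table, namely 31 msp-, 29 spe-, 10 nspd-, 12 ssp- and 4 ssq- genes. Of these, 82 had a count in some library, and msp-51, spe-11, nspd-8 and ssp-37 had none. Small RNA of whole worms was sequenced from wild type (WT) and from worms labelled hrde-1, which lack normal HRDE-1, an Argonaute protein of germline nuclei. The allele is not named in the labels. Parents (P0) and 3 generations of descendants (F1, F2, F3) of both genotypes carry either normoxia or hypoxia in their labels, which makes 16 groups of 2 libraries. Per the labels, hypoxia was 0.1% oxygen for 16 h at 20 °C from the L4 larval stage, followed by ambient oxygen near 20%, and all groups went through the same RppH treatment that lets 5′ triphosphate RNA be cloned. Which generations were themselves exposed is not stated, nor whether the 2 libraries of a group came from separate cultures, so the p-values reflect library-to-library spread that may be technical.

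Argonaute proteins carry 22G RNA to matching transcripts. HRDE-1 acts in germline nuclei and is known for heritable silencing, CSR-1 binds 22G RNA against genes that the germline expresses, and spermatogenic messenger RNAs are also targets of the Argonautes ALG-3 and ALG-4, which act before 22G RNA is made. The msp- genes encode major sperm protein, which forms the cytoskeleton that lets amoeboid sperm crawl and which also signals to oocytes. The spe- genes were named for mutants with defective spermatogenesis, nspd- genes encode a nematode-specific peptide family, and ssp- and ssq- genes encode sperm-specific proteins. A 22G count reports small RNA against a gene and not that gene's transcript, and in whole worms fewer germ cells and less RNA per cell cannot be told apart.

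The libraries held 438436 to 2578063 counts of 22G RNA. In P0 WT normoxia 22G RNA was 9.27% and 6.15% of the counts of the 4 deposited classes (22G RNA, microRNA, piRNA and snoRNA), against 14.9% to 45.9% in the other libraries. The F2 WT normoxia libraries were not independent of others. For each of the 46932 genes their value was at least the summed value of the F1 and F3 WT normoxia libraries of the same replicate number divided by 3, with 0 genes below it. What was left was a whole number once multiplied by 3, while other pairs among the 435 pairs of libraries left at least 679 genes below. Comparisons that use these libraries are given with and without them where the call or the count changes. The 2 libraries of some groups also disagreed, most in F3 hrde-1 normoxia. Of the genes with at least 10 counts in either F3 hrde-1 normoxia library, 29.5% had 0 counts in the other, and this held for 19 of 30 sperm genes. The share was 9.20% in F3 hrde-1 hypoxia (10 of 28 sperm genes), 7.82% in F3 WT hypoxia (5 of 14), 8.78% in F2 hrde-1 normoxia (5 of 23) and 0.186% to 2.07% in the other groups.

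Most 22G RNA on sperm genes lay on a few spe- genes. Over all 32 libraries the sperm genes took 40169 counts, of which spe-47 had 16998 (42.3%) and spe-41 had 10436 (26.0%). The gene spe-47 encodes a protein with an MSP domain that helps time sperm activation, and spe-41, also called trp-3, encodes a TRPC-type calcium channel of sperm. Per kilobase of annotated exon, spe-47 had 13544 counts and spe-41 had 3827, while the next gene, nspd-1, had 1197. The median gene had 130.2 counts per kilobase among msp-, 54.9 among spe-, 463 among nspd-, 354 among ssp- and 126 among ssq- genes. The 31 msp- genes together held 2673 counts, or 6.65% of the total. They lie on chromosome II (13 genes) and chromosome IV (18 genes), and because msp- copies are nearly identical, reads may be shared or split between them.

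The clearest difference was between the genotypes and concerned spe-41, which lost most of its 22G RNA in hrde-1 under either oxygen label. Values are CPM, counts scaled by library size after TMM normalization. In WT normoxia the 8 libraries of the 4 generations ran from 197 to 533 CPM with a median of 412 CPM. The 8 hrde-1 normoxia libraries ran from 31.9 to 58.7 CPM with a median of 51.8 CPM. Under the hypoxia label the WT range was 208 to 524 CPM (median 421) and the hrde-1 range 30.0 to 70.8 CPM (median 44.6). No hrde-1 library reached any WT library. The log2 fold change, hrde-1 against WT, was -2.95 ± 0.13 (SE, 8 against 8 libraries; edgeR quasi-likelihood test, adjusted p = 2.47e-12) in normoxia and -3.01 ± 0.16 (adjusted p = 1.83e-12) in hypoxia. The gene lies at III:3439011-3444210 on the minus strand in WBcel235 and overlaps no other annotated gene. In WT the 4 P0 libraries, at 197 to 240 CPM, were below the 12 libraries of F1 to F3, at 358 to 533 CPM, a difference between generations that was not tested.

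A fall in hrde-1 was also seen for spe-15, which encodes the myosin VI that sorts material away from budding sperm. In normoxia WT libraries had 33.2 to 44.7 CPM (median 36.5) and hrde-1 libraries 0.573 to 23.1 CPM (median 6.62). In hypoxia they had 18.5 to 69.5 CPM (median 32.0) and 0.699 to 14.8 CPM (median 6.88). The ranges did not overlap under either label. The log2 fold change was -2.31 ± 0.42 (adjusted p = 3.15e-04) and -2.35 ± 0.36 (adjusted p = 1.72e-05). Other genes overlap spe-15 on both strands, gst-25 and F47G6.6 among them, and the strand setting of the counting was not given, so its counts may hold reads of those genes.

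Some spe- genes went the opposite way and carried more 22G RNA in hrde-1. The gene spe-51, which encodes a secreted immunoglobulin-like protein of sperm needed for fertilization, had 0 to 3.74 CPM in WT normoxia (median 1.58) and 12.7 to 35.5 CPM in hrde-1 normoxia (median 22.2), without overlap. In hypoxia WT had 0 to 4.19 CPM (median 1.19) and hrde-1 3.56 to 40.5 CPM (median 19.4), so the ranges touched at the lowest hrde-1 library. The log2 fold change was 3.79 ± 0.55 (adjusted p = 2.62e-05) in normoxia and 3.61 ± 0.67 (adjusted p = 1.76e-04) in hypoxia. The most heavily targeted gene, spe-47, had 78.8 to 379 CPM in WT normoxia (median 275) and 353 to 533 CPM in hrde-1 normoxia (median 395), ranges that overlapped. In hypoxia WT had 73.8 to 288 CPM (median 195) and hrde-1 had 370 to 704 CPM (median 607), without overlap. The increase was 0.89 ± 0.21 (log2, adjusted p = 0.0037) in normoxia and 1.79 ± 0.17 (adjusted p = 1.9e-08) in hypoxia. In normoxia the gap differed by generation, which was not tested. At P0 hrde-1 had 386 and 368 CPM and WT 92.2 and 78.8 CPM. The values were 533 and 520 against 259 and 262 CPM in F1, and 509 and 353 against 288 and 291 CPM in F2. In F3 they lay close together, at 404 and 379 CPM in hrde-1 and 375 and 379 CPM in WT. The 4 WT libraries of P0 lay at 73.8 to 92.2 CPM and the 12 of F1 to F3 at 182 to 379 CPM. The call in normoxia was lost when libraries were scaled by the sum of the 4 classes. The antisense gene Y23H5A.9 overlaps spe-47, and the strand setting was not given, so the counts of spe-47 may hold reads of that gene.

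The casein kinase gene spe-6, which acts in major sperm protein assembly and in the timing of sperm activation, passed in normoxia. WT normoxia libraries had 8.30 to 18.7 CPM (median 10.5) and hrde-1 normoxia libraries 26.8 to 59.7 CPM (median 33.5), without overlap, a log2 fold change of 1.66 ± 0.28 (adjusted p = 1.35e-04). In hypoxia the ranges were 10.5 to 28.8 CPM in WT (median 13.9) and 6.29 to 32.8 CPM in hrde-1 (median 18.8), which overlapped, and the log2 fold change was 0.18 ± 0.34 (adjusted p = 0.709). In normoxia spe-5, a subunit of the vacuolar ATPase, was lower (log2 fold change -2.02 ± 0.71, adjusted p = 0.0403), but this call held in only 3 of 16 fits that left out 1 library. The vesicle trafficking gene spe-39 and the transcription factor gene spe-44, the latter active early in spermatogenesis, did not pass. For spe-39 the medians were 29.4 and 29.5 CPM in WT and hrde-1 normoxia, and 39.3 and 27.0 CPM in hypoxia. For spe-44 they were 22.8 and 14.3 CPM, and 22.1 and 13.2 CPM.

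**Figure D1:**
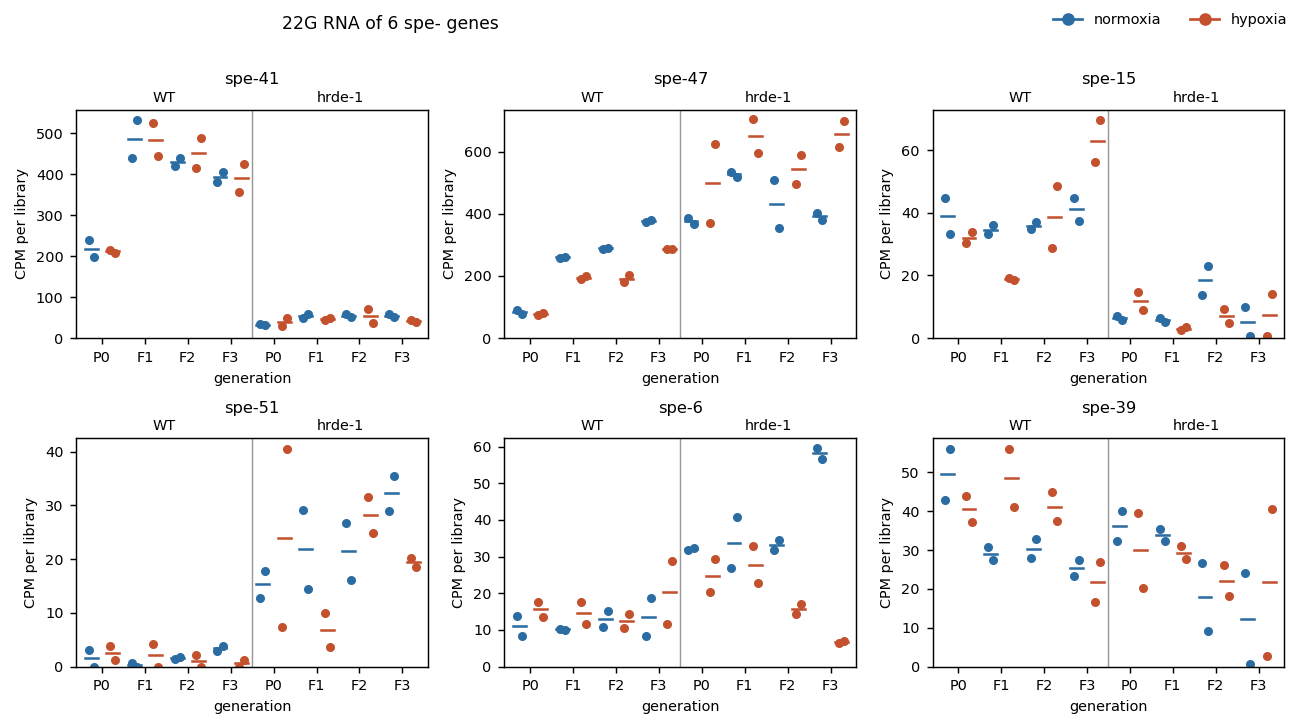
22G RNA in CPM (y axis, linear, from 0) of 6 spe- genes in each of the 32 libraries, by generation (x axis), WT on the left and hrde-1 on the right of each panel. Points are libraries, bars are means of the 2 libraries, blue is normoxia and orange hypoxia; spe-41 and spe-15 are lower in hrde-1, spe-51 is higher, and spe-6 in F3 hrde-1 falls from 56.7 and 59.7 CPM in normoxia to 6.29 and 6.97 CPM in hypoxia.

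Under normoxia the sperm genes that passed between the genotypes were all spe- genes. Of the 36 sperm genes tested, 6 passed, 3 higher and 3 lower, where 28.0% of all 9279 genes tested passed, 11.7% higher and 16.3% lower. The members that passed were the 6 just described, and no further sperm gene had an unadjusted p under 0.05, as 37.6% of all genes tested did. The median log2 fold change was -0.18 for the sperm genes tested and -0.18 for all genes tested. None of the 10 msp-, 5 nspd-, 6 ssp- and 4 ssq- genes tested passed in edgeR. Their SE ran from 0.62 (nspd-10) to 1.52 (ssp-36), so not passing does not show equal levels in the genotypes. DESeq2 called 8 sperm genes.

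Under hypoxia some msp-, nspd-, ssp- and ssq- genes were higher in hrde-1 as well. Of the 35 sperm genes tested, 16 passed, 14 higher and 2 lower, where 38.1% of all 9213 genes tested passed, 18.0% higher and 20.1% lower. The median log2 fold change was 1.63 for the sperm genes tested and -0.02 for all genes tested. The count filter kept 35 of the 86 genes, and a gene that is near 0 in WT can enter only through its hrde-1 libraries, so this count and this median describe the genes kept and are no support for a shift of the 86 genes. Among the families, 6 of 9 msp-, 2 of 4 nspd-, 2 of 7 ssp- and 1 of 3 ssq- genes tested rose, and 3 of 12 spe- genes rose and 2 fell. Without the F2 libraries the count was 8, and without the F3 libraries 13.

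Among the msp- genes, msp-40 had 158 counts over the 8 hrde-1 hypoxia libraries and 6 counts over the 8 WT hypoxia libraries. In CPM hrde-1 ran from 0 to 32.4 (median 10.4) and WT from 0 to 1.65 (median 0), and 5 of the 8 WT libraries were at 0. The log2 fold change was 4.58 ± 0.94 (adjusted p = 6.21e-04), and it passed in all 16 fits that left out 1 library. For msp-77 there were 73 counts against 1, a ratio of 84.0 with an exact 95% interval of 14.6 to 3363 (counting error only; adjusted p = 6.84e-04). For msp-59 there were 42 counts against 1, a ratio of 48.3 with an interval of 8.21 to 1954 (counting error only; adjusted p = 0.00552). The gene msp-36 had 0 to 29.5 CPM in hrde-1 (median 8.82) and 0 to 6.86 CPM in WT (median 0), a log2 fold change of 3.55 ± 0.80 (adjusted p = 0.00131). The ranges of all these msp- genes overlapped at 0, since each had at least 1 hrde-1 library without a count. In normoxia the same genes had fold changes within 1 SE of 0 for msp-40, msp-77 and msp-59, and msp-36 was at 2.41 ± 1.16 without passing (adjusted p = 0.138).

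The other calls in hypoxia were of the same kind. The palmitoyltransferase gene spe-10 had 29 counts in hrde-1 and 3 in WT, a ratio of 11.1 with an exact 95% interval of 3.45 to 57.1 (counting error only). Its hrde-1 counts were uneven, with 3 and 9 in F2 and 0 and 7 in F3. The log2 fold change was 2.98 ± 0.92 for msp-142 (adjusted p = 0.0138) and 3.00 ± 0.96 for ssp-35 (adjusted p = 0.0166). The calls of spe-10 and ssp-35 were lost without the library F3 hrde-1 hypoxia 2, and that of msp-142 without F3 hrde-1 hypoxia 1 or P0 hrde-1 hypoxia 1. The most targeted nspd- gene, nspd-1, had 2.22 to 37.2 CPM in hrde-1 (median 7.92) and 0 to 5.03 CPM in WT (median 1.78), and passed (adjusted p = 0.00992). Other calls, with adjusted p from 0.0278 to 0.0485, were ssq-2, nspd-4, msp-3 and the ssp-9 entry WBGene00006040, a symbol that it shares with WBGene00006038. The most targeted ssp- and ssq- genes, ssp-16 and ssq-1, did not pass under either label. In hypoxia their medians were 4.02 and 2.96 CPM in WT and 6.88 and 5.85 CPM in hrde-1.

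**Figure D2:**
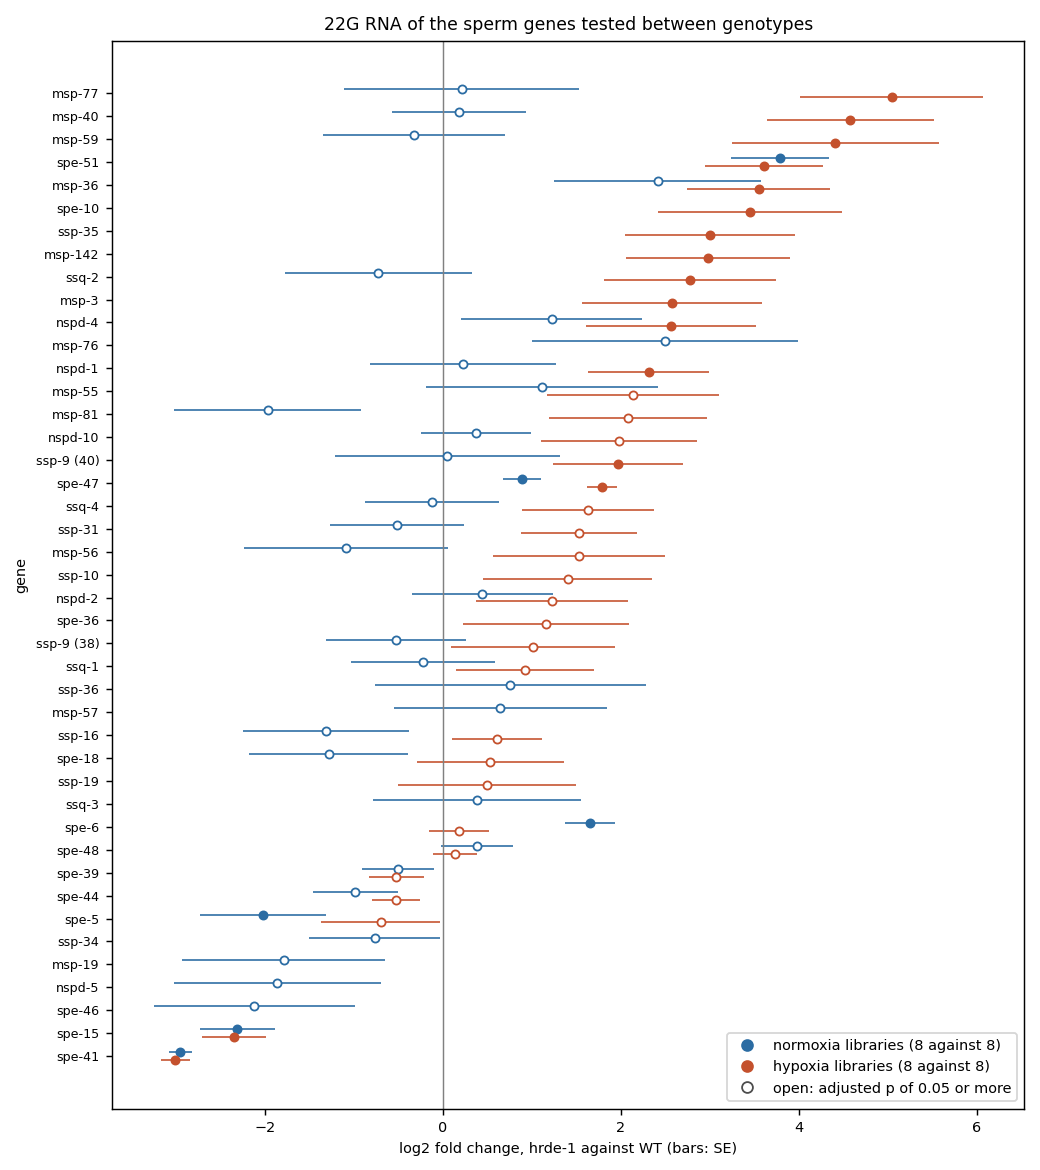
Log2 fold change of 22G RNA, hrde-1 against WT (x axis), for every sperm gene that passed the count filter (y axis), in normoxia (blue) and hypoxia (orange) libraries, 8 against 8 each. Bars are SE, filled points have an adjusted p under 0.05, and ssp-9 (40) and ssp-9 (38) are the entries WBGene00006040 and WBGene00006038; spe-41 and spe-15 lie far to the left under both labels, while the filled msp- points are all orange.

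Sums over whole families, which need no filter, show the spread behind these calls. Over the 31 msp- genes the sum was 23.1 to 83.5 CPM in WT normoxia (mean 51.6 ± 19.3, SD, n = 8) and 0.404 to 40.7 CPM in WT hypoxia (mean 19.8 ± 13.4). In hrde-1 it was 16.2 to 128 CPM in normoxia (mean 72.9 ± 41.5) and 13.9 to 190 CPM in hypoxia (mean 95.8 ± 57.7). All 4 ranges overlapped. For the msp-, nspd-, ssp- and ssq- genes together in F1 to F3, the 6 WT hypoxia libraries lay at 11.3 to 93.0 CPM and the 6 hrde-1 hypoxia libraries at 197 to 284 CPM, without overlap. At P0 the hrde-1 hypoxia libraries had 86.0 and 66.4 CPM and the WT hypoxia libraries 26.4 and 24.8 CPM, so over all 4 generations the ranges overlapped. The 6 normoxia libraries of each genotype lay at 97.6 to 172 CPM in WT and 72.4 to 244 CPM in hrde-1, which overlapped. This overlap came from F1, with 97.6 and 114 CPM in WT and 72.4 and 107 CPM in hrde-1. In F2 normoxia the sums were 112 and 118 CPM in WT and 229 and 224 CPM in hrde-1. In F3 normoxia they were 144 and 172 CPM in WT and 244 and 242 CPM in hrde-1. Within F2 and within F3 hrde-1 was thus higher under normoxia too, without overlap. The F2 WT normoxia values hold those of F1 and F3, so F2 is not independent of them, and F2 hrde-1 normoxia 2 held 97 counts. Each F3 hrde-1 normoxia library had counts on only 13 of these 57 genes, against 32 in each F3 WT normoxia library. The 8 spe- genes with over 500 counts each summed to 450 to 912 CPM in WT normoxia, and to 529 to 715 CPM in hrde-1 normoxia. These sums were not tested.

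**Figure D3:**
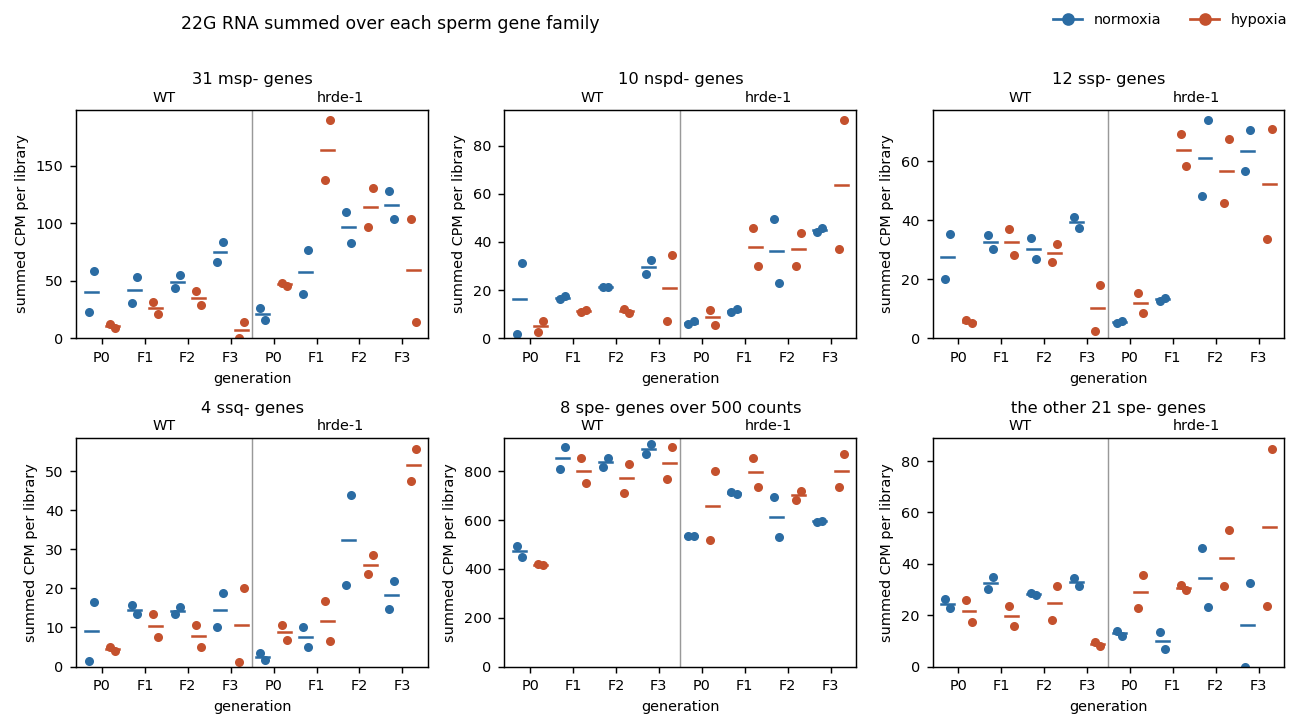
Summed 22G RNA in CPM (y axes, linear, from 0, with different scales) of each sperm gene family in each library, by generation (x axis), for WT and hrde-1. Points are libraries and bars the means of 2 libraries; the msp- panel has its highest values in F1 hrde-1 hypoxia (163 ± 36.9 CPM, SD, n = 2) and its lowest in F3 WT hypoxia (7.40 ± 9.89 CPM).

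Counts of single msp- genes were low and uneven. The most counted msp- gene of a library took 13.1% to 100% of its msp- counts. Both F1 hrde-1 hypoxia libraries had counts on 22 of the 31 genes. The F3 hrde-1 normoxia libraries had similar msp- totals, 208 and 181 counts, but on 5 and 3 genes, with 76 counts on msp-76 in the first and 97 on msp-56 in the second. F3 WT hypoxia 1 had 1 msp- count among 2090753 counts of 22G RNA, and the second library of that group had 23.

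**Figure D4:**
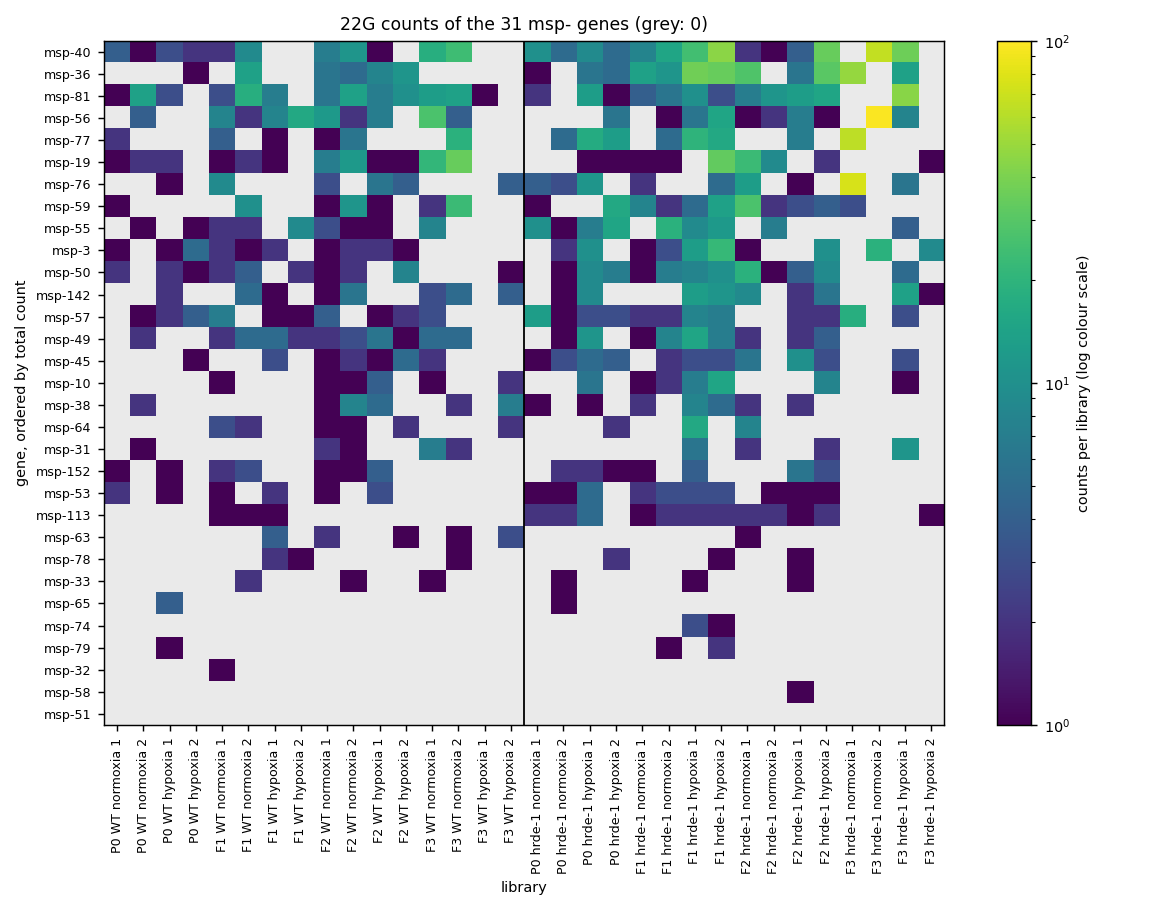
Counts of 22G RNA (colour, log scale from 1 to 100, grey for 0) of the 31 msp- genes (y axis, ordered by total count) in each of the 32 libraries (x axis), WT left and hrde-1 right of the line. Counts spread over 22 genes in the F1 hrde-1 hypoxia libraries and over 5 and 3 genes in the F3 hrde-1 normoxia libraries.

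The second question was whether the hypoxia label changed 22G RNA on sperm genes within a genotype. In WT descendants, F1 to F3 pooled, spe-47 and the msp- genes msp-40 and msp-19 were lower under hypoxia. Of the 20 sperm genes tested 3 fell and 0 rose. The background was 4.63% of all 8485 genes tested, with 1.38% higher and 3.25% lower. The count filter kept 20 of the 86 genes, and a gene near 0 in hypoxia can enter only through its normoxia libraries. The count of 3 and 0 therefore describes the genes kept and is no support for a shift of the 86 genes. The gene spe-47 had 259 and 262 CPM in F1 normoxia and 191 and 199 CPM in F1 hypoxia. In F2 it had 288 and 291 CPM against 182 and 202 CPM, and in F3 375 and 379 CPM against 287 and 288 CPM. It was lower under hypoxia within each generation, while the pooled ranges overlapped. The F2 normoxia values hold those of F1 and F3, so the F2 difference is not independent of theirs. The log2 fold change of spe-47 was -0.47 ± 0.08 (6 against 6 libraries, the F2 normoxia ones included, adjusted p = 0.00288). It missed the threshold with libraries scaled by the sum of the 4 classes, and also without the F2 normoxia libraries.

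The F2 WT normoxia libraries enter this fit although their values hold those of F1 and F3, so the 6 normoxia libraries are not 6 independent ones, and count ratios are given without them. For msp-40 the 4 normoxia libraries of F1 and F3 held 2, 9, 18 and 24 counts, 53 in all, and the 6 hypoxia libraries 1 count. Their ranges of 1.21 to 14.96 CPM and 0 to 0.702 CPM did not overlap. The ratio was 80.3, with an exact 95% interval of 13.8 to 3232 that covers counting error only. For msp-19 the 4 normoxia libraries held 1, 2, 21 and 34 counts, 58 in all, against 3 in hypoxia, a ratio of 29.3 with an interval of 9.54 to 146 of the same kind, and most of its counts came from F3. With the F2 WT normoxia libraries in the fit the adjusted p was 0.00443 for msp-40 and 0.0225 for msp-19. Without them it was 0.0570 and 0.105, 0 of 19 sperm genes passed, and spe-47 missed the threshold too.

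In hrde-1 descendants no sperm gene passed. Of 38 sperm genes tested in F1 to F3, 0 passed in edgeR, 3 had an unadjusted p under 0.05 and DESeq2 called 1. Of all 8523 genes 0.176% passed, and 7.79% had an unadjusted p under 0.05. The smallest p was that of spe-47, at 0.47 ± 0.15 (log2, adjusted p = 0.290). The fold change of msp-40 was 1.16 ± 1.10 and that of msp-19 was 0.68 ± 1.72, both adjusted p over 0.05.

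Single generations of 2 against 2 libraries gave few calls outside F3 hrde-1. In WT, 0 of 43 sperm genes passed at P0, F1, F2 and F3 in edgeR, with 3, 1, 1 and 8 at an unadjusted p under 0.05 and 0, 0, 0 and 2 in DESeq2. Of all 10121 genes 0.702%, 0.168%, 0% and 0.346% passed, and 6.72%, 3.67%, 1.64% and 12.8% had an unadjusted p under 0.05. At P0 the count depended on the scaling. With libraries scaled by the sum of the 4 classes, of which 22G RNA was 9.27% and 6.15% in normoxia and 43.2% and 41.1% in hypoxia, 8 sperm genes passed, all higher, and the median of all genes was 2.70. The sperm gene with the smallest p was msp-81 at P0, msp-40 in F1, spe-47 in F2 and msp-19 in F3, and their fitted values were below 0, without passing. The F3 value of msp-19 rested on 21 and 34 counts in normoxia and 0 in both hypoxia libraries (adjusted p = 0.0874). In hrde-1, 0 of 43 passed at P0, F1 and F2, with 3, 3 and 1 at an unadjusted p under 0.05 and 0 in DESeq2 in each, where 0.711%, 0.346% and 0% of all genes passed and 6.06%, 7.06% and 8.27% had an unadjusted p under 0.05. The smallest p was that of ssp-16 at P0 (0 counts in both normoxia libraries, 14 and 3 in hypoxia) and in F1 (2 and 1 counts, then 24 and 21). In F2 it was that of msp-19, with 23 and 9 counts in normoxia and 0 and 2 in hypoxia.

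In F3 hrde-1, 6 of 43 sperm genes passed, 5 higher and 1 lower under hypoxia. The background there was 21.6% of all genes, with 15.2% higher and 6.33% lower. The gene spe-6 fell from 56.7 and 59.7 CPM to 6.29 and 6.97 CPM, a log2 fold change of -3.13 ± 0.57 (adjusted p = 5.08e-04), and the call held without each of the 4 libraries. The gene spe-47 rose from 379 and 404 CPM to 616 and 698 CPM (0.75 ± 0.21, adjusted p = 0.0144), without overlap, and this call was lost without the second normoxia or the second hypoxia library. The other 4 calls were genes with 0 counts in both normoxia libraries and counts in a single hypoxia library. These were msp-81 (44 counts), spe-5 (18), ssp-35 (16) and spe-18 (13), the last of which helps form the organelles that carry major sperm protein. Against a floor of 3 counts over the normoxia group, their pooled hypoxia values were 21.6-fold, 8.82-fold, 7.84-fold and 6.37-fold higher. These values rest on a single hypoxia library each and are no bounds beyond counting error. Each of these 4 calls was lost without that hypoxia library and without either normoxia library.

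The difference of the hypoxia response between the genotypes, hrde-1 minus WT, was tested as an interaction. Over F1 to F3, 2 of 42 sperm genes passed, both higher, where 0.844% of all 9711 genes passed as higher and 0.124% as lower. For spe-47 the difference was 0.94 ± 0.17 (log2, adjusted p = 0.00585), and the call held in all 24 fits that left out 1 library. For msp-40 it was 6.45 ± 1.58 (adjusted p = 0.0413), and the call held in 6 of 24. Without the F2 WT normoxia libraries 0 sperm genes passed, and 0 passed when libraries were scaled by the sum of the 4 classes. The same interaction is the difference of the genotype effect between hypoxia and normoxia, so over F1 to F3 together no other msp-, nspd-, ssp- or ssq- gene was shown to differ in its genotype effect by oxygen label. At P0, F1 and F2 0 of 43 passed in edgeR, with 7, 6 and 3 at an unadjusted p under 0.05 and 0, 0 and 1 in DESeq2, where 0.0593%, 0.0889% and 0% of all genes passed and 2.79%, 6.12% and 6.22% had an unadjusted p under 0.05. In F3 6 of 43 passed, 5 higher and 1 lower, beside 9.67% of all genes higher and 2.28% lower.

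Other genes of the same biology were counted beside these. The lists were taken from textbook knowledge, and a list's counts are a description. They stand beside 11.7% of all genes higher and 16.3% lower in normoxia, and 18.0% higher and 20.1% lower in hypoxia. Of 9 other sperm genes tested in normoxia, 0 rose and 1 fell in hrde-1, and of 8 tested in hypoxia 3 rose and 2 fell. The list held 20 matched genes, and a gene near 0 in WT can pass the count filter only through its hrde-1 libraries. The one that fell under both labels was cpb-1, a translational regulator of spermatogenesis (log2 fold change -0.79 ± 0.20 and -0.71 ± 0.14). In hypoxia smz-1, which acts in sperm meiosis, rose by 1.92 ± 0.58 (adjusted p = 0.0125), and zipt-7.1, a zinc transporter of sperm activation, fell by 1.45 on the log2 scale (SE 0.28, adjusted p = 2.34e-04). Of 18 regulators of sperm or oocyte fate tested under each label, 1 rose and 2 fell in normoxia, and 2 rose and 6 fell in hypoxia. The male-promoting gene her-1 rose (2.06 ± 0.45 and 1.85 ± 0.49), and tra-1, the transcription factor that directs female fate, fell (-1.22 ± 0.19 and -1.37 ± 0.17). The sperm fate gene fog-1 fell in hypoxia (-2.44 ± 0.49, adjusted p = 4.13e-04).

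Of 24 genes of the small RNA pathway tested, 7 rose and 2 fell in normoxia, and 7 rose and 5 fell in hypoxia. Among them csr-1, which encodes the Argonaute CSR-1, rose by 1.01 ± 0.14 and 0.71 ± 0.12, and ergo-1, an Argonaute gene of the 26G pathway, fell (-0.83 ± 0.18 and -1.03 ± 0.24). The 22G RNA on hrde-1 itself passed in hypoxia (-0.78 ± 0.11), which does not check the genotype, since the mutation need not change small RNA against the gene. Of 24 oocyte and maternal genes tested, 10 rose and 1 fell in normoxia, and 7 rose and 4 fell in hypoxia. The oocyte genes egg-5 and egg-4, which act at the egg-to-embryo transition, rose by 1.23 ± 0.16 and 1.19 ± 0.22 in normoxia. Of 5 vitellogenin genes, yolk protein genes of the intestine, 0 passed under either label in edgeR, with 1 and 0 at an unadjusted p under 0.05. The median log2 fold change of the lists was -0.38, -0.02, 0.04, 0.47 and -0.75 in normoxia, in the order just given, beside -0.18 for all genes, and 1.59, 0.20, 0.21, 0.17 and -0.39 in hypoxia, beside -0.02. These medians describe the genes that the count filter kept and are no support for a shift of a whole list.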

How the data were processed

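Small RNA reads of 32 libraries had been counted per feature by the authors; the deposited values are raw counts, and those of F2 WT normoxia are expected counts in multiples of 1 divided by 3, which were rounded here. FastQC, cutadapt 2.5, featureCounts and edgeR were used per the submitters' processing notes. The aligner, build, annotation and strand setting are not given in the sources used here. Of the 22G gene identifiers, 46919 of 46932 matched WBcel235 (Ensembl), which gave names and coordinates. The summary entries of the 22G table stayed out of library sizes: __no_feature was 16.4% to 25.5%, __ambiguous 3.09% to 3.60% and __not_aligned 7.24% to 14.9% of a library's total. 22G depth was 438436 to 2578063 counts per library.

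Counts were fitted over all genes with edgeR 4.0.16 (R 4.3.3), TMM scaling, robust glmQLFit and glmQLFTest. The count filter was filterByExpr (minimum count 10), run for each fit. The genes tested therefore differed between fits, from 8485 to 10121. Benjamini-Hochberg adjustment was over all genes tested, with a threshold of 0.05. Single generations and their interactions came from 1 fit of 16 group means, and pooled comparisons had generation as a term. CPM use the TMM library sizes of that fit. Scripts were checked on simulated counts of well-counted genes, which does not measure error rates for genes with few counts or disagreeing replicates. Alternatives were DESeq2 1.42.0, other scalings and filters, a replicate block, and left-out libraries or generations. The members and lists were chosen with earlier results of these data known. The text names the 4 most targeted msp- and spe- genes and the most targeted gene of each other family. It also names up to 8 called genes per direction and comparison, or else the gene with the smallest p. Up to 3 genes per list and direction between genotypes are named too. Other genes (spe-44, spe-6 in hypoxia, msp-76, Y23H5A.9 and the unlisted calls) were named after their values were seen. No replicates agreed within sampling noise (chi-square per degree of freedom 2.12 or more).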

Additional observations from a re-analysis of the deposited data

Results flagged for a closer look

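The response to the hypoxia label differed between hrde-1 and WT, by the interaction test of edgeR, for 8 values. In F3 the sperm genes that passed, 5 of 43 higher and 1 of 43 lower, stand beside 9.67% and 2.28% of all 10121 genes, so their count is close to the background and is no result about sperm genes. Over F1 to F3, 2 of 42 passed, both higher, beside 0.844% of all genes, and 0 passed without the F2 WT normoxia libraries. In F3 the difference, hrde-1 minus WT on the log2 scale, was -3.69 for spe-6 (adjusted p = 0.00308) and 1.14 for spe-47 (adjusted p = 0.0134), and both calls held without each of the 8 F3 libraries. It was 12.24 for msp-81, 8.19 for spe-18, 10.78 for spe-46 and 10.28 for ssp-35. For these genes both F3 hrde-1 normoxia libraries were at 0 counts, so the fitted sizes depend on the prior count and are no bounds. The F3 WT hypoxia counts were 1 and 0 for msp-81, 1 and 7 for spe-18, and 0 and 0 for spe-46 and ssp-35. The F3 hrde-1 hypoxia counts were 44 and 0, 0 and 13, 14 and 1, and 0 and 16, in the order msp-81, spe-18, spe-46 and ssp-35. These calls held in 7, 5, 3 and 2 of the 8 fits that left out 1 F3 library. In F1 to F3 the difference was 0.94 for spe-47 and 6.45 for msp-40.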

How the results depend on the processing

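Counts of sperm genes called are given here where a setting moved them by over 1.5 times. Between genotypes in hypoxia, 16 became 8 without the F2 libraries. With libraries scaled by the sum of the 4 classes, 8 passed at P0 WT, all higher, when the median of all genes was 2.70, and in the P0 interaction 4 passed (1 higher, 3 lower, median of all genes -2.32), while the F1 to F3 interaction had 0. With no filter on low counts, 3 passed in F3 WT, 5 in F1 to F3 WT and 11 in the F3 interaction. DESeq2 called 2 in F3 WT, 1 in F1 to F3 hrde-1 and 1 in the F2 interaction. Without the F3 libraries the count was 2 in P0 hrde-1, 1 in F1 hrde-1, 1 in F1 to F3 WT, 1 in the P0 interaction and 1 in the F2 interaction. Without the F2 WT normoxia libraries, a setting chosen after seeing the data, it was 0 in F1 to F3 WT and 0 in the F1 to F3 interaction. The cause was not tested. Leaving out 1 library at a time gave 5 to 9 between genotypes in normoxia, 13 to 17 in hypoxia, 3 to 7 in F3 hrde-1, 2 to 4 in F1 to F3 WT, 5 to 13 in the F3 interaction and 1 to 4 in that of F1 to F3, and 0 to 0 in the other comparisons. Of 645 refits of single named calls in which the gene still had an adjusted p, 0 changed sign and 87 missed the threshold. Refits in which the gene had none are not in these numbers.

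Same-numbered libraries deviated together in 2 of 120 pairs of groups (correlation over 0.1), both pairs involving F2 WT normoxia, so the numbers do not pair the samples. With the replicate block, 15 in place of 16 genes passed between genotypes in hypoxia, and the other counts stayed as they were. Most sperm genes outside spe- had few counts per library, which limits what single genes can show.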
